A study of Homo sapiens with 9 samples.

Results

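The 9 genes described here encode proteins of the extracellular matrix, or an enzyme that modifies them: COL12A1, TGFBI, NPNT, SMOC1, THSD4, P3H3, LAMA3, LAMB3 and FN1. They were chosen by name out of 58920 genes in the count tables, and all 9 were among the 19102 genes that reached 10 counts over the 9 libraries. The first 6 were picked for their change in these same libraries, so their values are given as a description with no test. LAMA3, LAMB3 and FN1 were not named as picked for a change, and were tested with all other genes.

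Poly(A) RNA was sequenced from LIM1215, a colorectal cancer cell line without RAS mutation that is sensitive to the EGFR antibody cetuximab, in 3 libraries per line. LIM1215-R1 and LIM1215-R2 are cetuximab-resistant lines that were raised independently from LIM1215 under rising cetuximab over months. LIM1215-parental cells were kept alongside without the drug, and RNA was taken from untreated cells of all 3 lines. Both resistant lines are mixed populations rather than clones, with HRAS-mutant cells among them as the study describes, and both are compared to the same 3 LIM1215-parental libraries. The replicates are technical as the study labels them, so the p-values measure the spread between libraries of 1 culture history per line. The SE of a log2 fold change is derived from the test. It understates the uncertainty of a large change where a line holds few counts.

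Libraries held 13737416 to 18725014 counts, at which 3 counts equal 0.16 to 0.218 CPM, counts scaled to the size of the library. Correlations of log2 CPM were 0.9895 to 0.9917 between libraries of one line and 0.971 to 0.987 between lines. Of 11 markers of colorectal epithelium, 10 exceeded 1 CPM in each line, and KRT20 had no counts. Of 12 fibroblast markers, 4 exceeded 1 CPM in LIM1215-parental (COL1A1 1.28, PDGFRB 1.21, ACTA2 1.43 and TAGLN 3.29 CPM). ACTA2 and TAGLN were the 2 above 1 CPM in each resistant line. VIM, COL1A2, PDGFRA and THY1 had no counts in any library. The summed fibroblast level was 7.14 to 7.73 CPM in LIM1215-parental, 19.1 to 20.6 CPM in LIM1215-R1 and 5.22 to 6.38 CPM in LIM1215-R2 cells. TAGLN, a smooth muscle and actin-binding gene, made up most of it in LIM1215-R1 (16.2 CPM, compared to 3.29 and 2.94 CPM in the other lines). The 5 endothelial markers stayed below 1 CPM, and CD68 was the 1 leukocyte marker of 5 above it. The part of TAGLN or of these markers in the results was not tested.

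Epithelial cells rest on a basement membrane, a thin sheet built from laminins, type IV collagen, nidogens and perlecan. Laminins are trimers of an alpha, a beta and a gamma chain, and laminin-332, to which LAMA3 and LAMB3 contribute chains, anchors epithelial cells through integrins alpha6beta4 and alpha3beta1. The stroma below holds fibrillar collagens, fibronectin and fibrillin microfibrils, which are mostly made by fibroblasts and which many carcinoma cells also secrete in part. In bulk RNA, fewer cells expressing a gene and less RNA per cell cannot be told apart.

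COL12A1 and NPNT were low in both resistant lines. COL12A1 encodes collagen XII, a fibril-associated collagen that sits on the surface of collagen I fibrils (hg38 chr6:75084326-75206267, minus strand). It measured 26.1, 26.1 and 27.3 CPM in the LIM1215-parental libraries, 3.25, 3.01 and 2.19 CPM in LIM1215-R1 and 1.78, 2.17 and 1.57 CPM in LIM1215-R2. Every resistant library lay below every LIM1215-parental library. Mean levels were 9.4-fold lower in LIM1215-R1 (log2 fold change -3.23, SE 0.128) and 14.4-fold lower in LIM1215-R2 (log2 fold change -3.84, SE 0.139). Between the resistant lines the log2 fold change of LIM1215-R2 against LIM1215-R1 was -0.61 (SE 0.199). Their libraries only just did not overlap: LIM1215-R1 replicate 3 at 2.19 CPM and LIM1215-R2 replicate 2 at 2.17 CPM held 35 counts each.

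NPNT encodes nephronectin, a basement membrane ligand of integrin alpha8beta1 (chr4:105894775-106004027, plus strand). It measured 58.5, 50.9 and 54.5 CPM in LIM1215-parental libraries, 2.27, 3.07 and 2.88 CPM in LIM1215-R1, and 0.416, 0.619 and 0.0653 CPM in LIM1215-R2. The 3 lines formed 3 separate levels. The mean was 19.9-fold lower in LIM1215-R1 than in LIM1215-parental cells (log2 fold change -4.32, SE 0.129) and 149-fold lower in LIM1215-R2 (log2 fold change -7.17, SE 0.182). NPNT was also the member that separated the resistant lines most, with a log2 fold change of -2.85 (SE 0.325) for LIM1215-R2 against LIM1215-R1. Of the 19102 genes tested, 139 had a more negative log2 fold change in LIM1215-R1, and 19 had one in the LIM1215-R2 comparison. The lowest LIM1215-R2 library lay under the level of 3 counts, so the size of the fall there is set more loosely than its SE of 0.182 states. ITGA8, which encodes the alpha chain of the nephronectin receptor, and EGFL6, a gene related to NPNT, had no counts in any library.

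TGFBI, SMOC1, THSD4 and P3H3 were high in both resistant lines. TGFBI encodes a secreted protein that is induced by TGF-beta and binds collagens and integrins (chr5:136028988-136063818, plus strand). It measured 0.826, 0.939 and 0.63 CPM in LIM1215-parental, 28.1, 26.4 and 27.3 CPM in LIM1215-R1 and 23.0, 22.1 and 23.2 CPM in LIM1215-R2 libraries. The lowest resistant library was far above the highest LIM1215-parental library. Means were 34.2-fold higher in LIM1215-R1 (log2 fold change 5.11, SE 0.143) and 28.5-fold higher in LIM1215-R2 (4.85, SE 0.147). LIM1215-R2 libraries were all below the LIM1215-R1 libraries, with a log2 fold change of -0.26 (SE 0.0809). POSTN, the closest relative of TGFBI, had no counts in any library.

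SMOC1 encodes a calcium-binding matrix protein of the SPARC family that is found in basement membranes and antagonises BMP signaling (chr14:69854131-70032366, plus strand). It measured 0.59, 0.939 and 0.735 CPM in LIM1215-parental, 41.2, 47.1 and 42.4 CPM in LIM1215-R1 and 43.5, 41.1 and 45.3 CPM in LIM1215-R2 libraries. The resistant lines overlapped, and their difference was -0.01 on the log2 scale (SE 0.0727). Compared to LIM1215-parental cells the log2 fold change was 5.86 (SE 0.14) in LIM1215-R1 and 5.85 (SE 0.14) in LIM1215-R2.

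THSD4 encodes an ADAMTS-like protein that binds fibrillin-1 and promotes microfibril assembly (chr15:71096952-71783383, plus strand). It measured 3.72, 3.54 and 3.31 CPM in LIM1215-parental, 34.3, 32.9 and 33.1 CPM in LIM1215-R1 and 31.5, 34.2 and 32.8 CPM in LIM1215-R2 libraries. As with SMOC1, the resistant lines overlapped (log2 fold change -0.03, SE 0.0726), and all of their libraries lay above the LIM1215-parental libraries. The log2 fold change against LIM1215-parental cells was 3.25 (SE 0.101) in LIM1215-R1 and 3.22 (SE 0.102) in LIM1215-R2, the smallest increase among the 4 genes in both lines. A lncRNA without a symbol lies in THSD4 on the same strand, and whether their exons overlap was not analysed here.

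P3H3 encodes a member of the prolyl 3-hydroxylase family that works with P3H4 in the modification of collagen (chr12:6828407-6839847, plus strand). It measured 0.118, 0.217 and 0.21 CPM in LIM1215-parental, 12.9, 15.1 and 14.0 CPM in LIM1215-R1 and 7.55, 8.24 and 8.69 CPM in LIM1215-R2 libraries. The LIM1215-parental values rest on 2, 3 and 4 counts, so the SE against LIM1215-parental cells understates the uncertainty. The log2 fold change was 6.22 (SE 0.23) in LIM1215-R1 and 5.44 (SE 0.254) in LIM1215-R2, and the 2 resistant lines did not overlap (LIM1215-R2 against LIM1215-R1, -0.78, SE 0.115). P3H3 had the largest increase of the 9 genes in LIM1215-R1, where 29 of the tested genes rose further, and SMOC1 had it in LIM1215-R2, where 41 rose further. GPR162 overlaps the start of P3H3 on the same strand, and whether this affects the P3H3 counts was not analysed here.

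**Figure D1:**
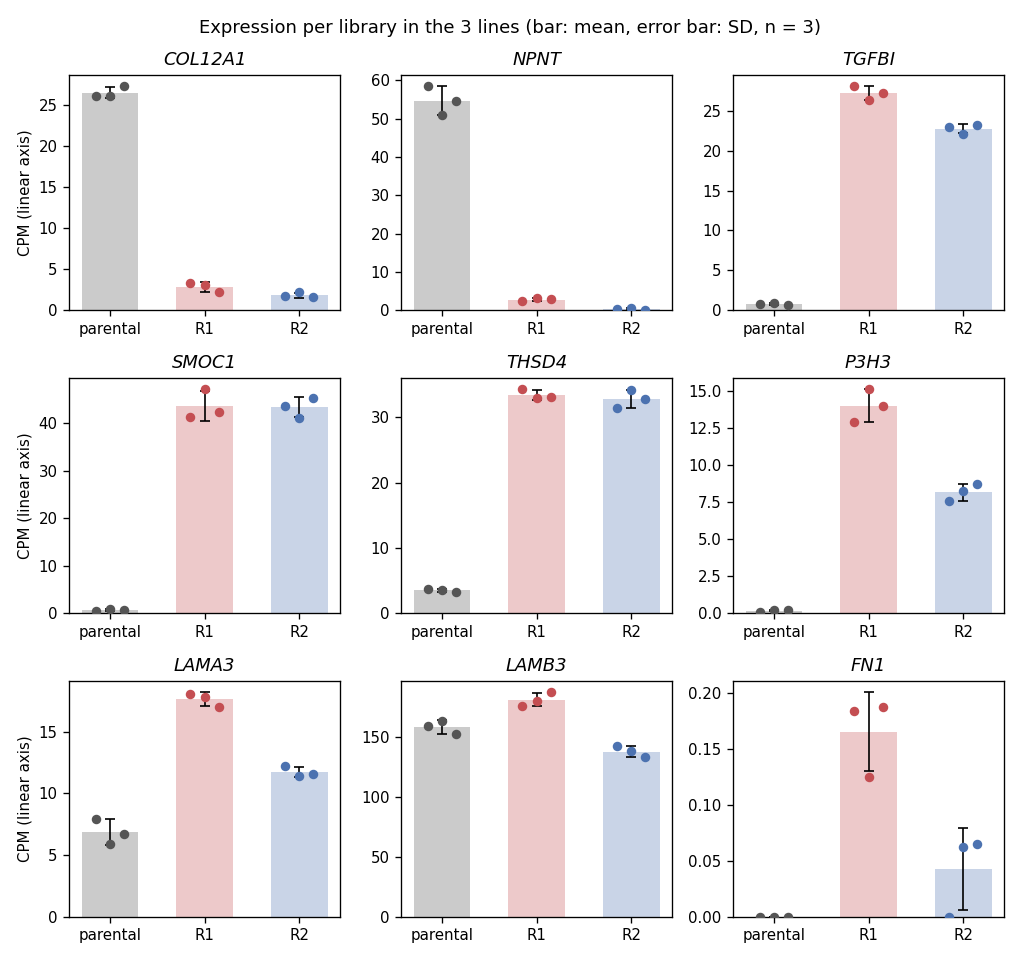
CPM of the 9 genes in each library (points) with the mean (bar) and SD (error bar, n = 3) on linear axes that start at 0, for LIM1215-parental (grey), LIM1215-R1 (red) and LIM1215-R2 (blue). COL12A1 and NPNT stood at 26.5 and 54.6 CPM in LIM1215-parental cells and below 3.25 CPM on average in both resistant lines, TGFBI, SMOC1, THSD4 and P3H3 showed the opposite order, and the FN1 axis ends near 0.2 CPM.

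The starts of the 9 genes were read from RefSeq (GRCh38.p14), which lists 13 promoters for them. The 250 bases before each start were searched on both strands for the AP-1 motif TGANTCA, the GC box GGGCGG and the TATA box TATAAA, motifs that were chosen after the values were seen. They occur in 6.57%, 42.6% and 10.7% of the same windows of all 35116 promoters. AP-1 motifs were found before the start of LAMA3 (2 matches) and before 1 of 3 starts of LAMB3 (1 match), and in none of the 7 other genes. Overlapping matches, as in SMOC1 and FN1, were each counted. The GC box stood in at least 1 window of each gene other than P3H3, in THSD4 in 1 of 3. This is per gene and cannot be set beside the 42.6% of single windows. The TATA box letters stood only in that of SMOC1, on the strand opposite to the gene. The 4 windows below are shown because NPNT and SMOC1 moved furthest in opposite directions in LIM1215-R2 and because LAMA3 and LAMB3 hold the AP-1 matches. They cover chr4:105895221-105895470 and chr14:69879166-69879415 on the plus strand, with GC boxes of either strand in capitals, and chr18:23872770-23873019 on the plus strand and chr1:209651375-209651624 on the minus strand, with AP-1 motifs in capitals. A match is a run of letters and not a measured binding site.
NPNT: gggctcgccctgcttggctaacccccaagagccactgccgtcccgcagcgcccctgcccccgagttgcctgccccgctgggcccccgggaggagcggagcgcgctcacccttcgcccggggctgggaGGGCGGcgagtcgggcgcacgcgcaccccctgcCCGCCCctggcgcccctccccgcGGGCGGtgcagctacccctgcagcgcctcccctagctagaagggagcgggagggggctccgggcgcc
SMOC1: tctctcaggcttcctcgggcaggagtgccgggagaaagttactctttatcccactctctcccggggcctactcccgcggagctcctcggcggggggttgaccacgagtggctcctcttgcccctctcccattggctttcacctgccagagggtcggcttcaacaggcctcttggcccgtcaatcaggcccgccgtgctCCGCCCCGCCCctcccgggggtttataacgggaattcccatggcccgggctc
LAMA3: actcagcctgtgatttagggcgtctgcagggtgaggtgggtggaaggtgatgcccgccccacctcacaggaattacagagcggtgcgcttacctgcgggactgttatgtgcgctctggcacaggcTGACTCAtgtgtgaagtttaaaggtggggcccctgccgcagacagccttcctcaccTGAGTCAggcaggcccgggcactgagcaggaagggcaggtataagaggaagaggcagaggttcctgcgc
LAMB3: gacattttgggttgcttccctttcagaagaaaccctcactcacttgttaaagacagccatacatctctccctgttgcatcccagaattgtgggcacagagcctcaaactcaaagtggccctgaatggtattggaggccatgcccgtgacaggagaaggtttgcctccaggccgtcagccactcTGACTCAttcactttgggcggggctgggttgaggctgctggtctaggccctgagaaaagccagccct

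All 4 windows lie inside the gene spans given here, since RefSeq places these starts inward of the outermost GENCODE start. LAMA3 (chr18:23689453-23956222, plus strand) encodes the alpha3 chain of laminin-332 and rose in both resistant lines, while LAMB3, its beta3 chain, moved in opposite directions in them. LAMA3 measured 7.96, 5.92 and 6.67 CPM in LIM1215-parental, 18.1, 17.8 and 17.0 CPM in LIM1215-R1 and 12.2, 11.4 and 11.6 CPM in LIM1215-R2 libraries, with no overlap between any of the lines. The log2 fold change was 1.35 in LIM1215-R1 (SE 0.11, edgeR adjusted p = 9.62e-11) and 0.77 in LIM1215-R2 (SE 0.116, edgeR adjusted p = 5.67e-06). LIM1215-R2 was lower than LIM1215-R1 by a log2 fold change of -0.58 (SE 0.102, edgeR adjusted p = 0.00021). In these tests 14.0% of all genes were higher and 13.4% lower at an adjusted p of at most 0.01 in LIM1215-R1, 12.3% and 11.6% in LIM1215-R2, and 3.39% and 3.77% in LIM1215-R2 against LIM1215-R1.

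LAMB3 (chr1:209614870-209652425, minus strand) measured 159, 163 and 152 CPM in LIM1215-parental, 176, 180 and 187 CPM in LIM1215-R1 and 142, 138 and 133 CPM in LIM1215-R2 libraries. Again the 3 lines did not overlap, with LIM1215-parental in the middle. It was higher in LIM1215-R1 by a log2 fold change of 0.20 (SE 0.048, edgeR adjusted p = 0.00171) and changed by -0.20 in LIM1215-R2 (SE 0.0485, edgeR adjusted p = 0.0021). The difference of LIM1215-R2 from LIM1215-R1 was -0.39 (SE 0.0484, edgeR adjusted p = 1.38e-06). The rise in LIM1215-R1 missed the threshold without LIM1215-parental replicate 3 (0.17, edgeR adjusted p = 0.0196) or without LIM1215-R1 replicate 3 (0.17, edgeR adjusted p = 0.0198). The fall in LIM1215-R2 missed it without LIM1215-parental replicate 1 (-0.19, edgeR adjusted p = 0.011), LIM1215-R2 replicate 2 (-0.20, edgeR adjusted p = 0.0114) or LIM1215-R2 replicate 3 (-0.18, edgeR adjusted p = 0.0143).

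**Figure D2:**
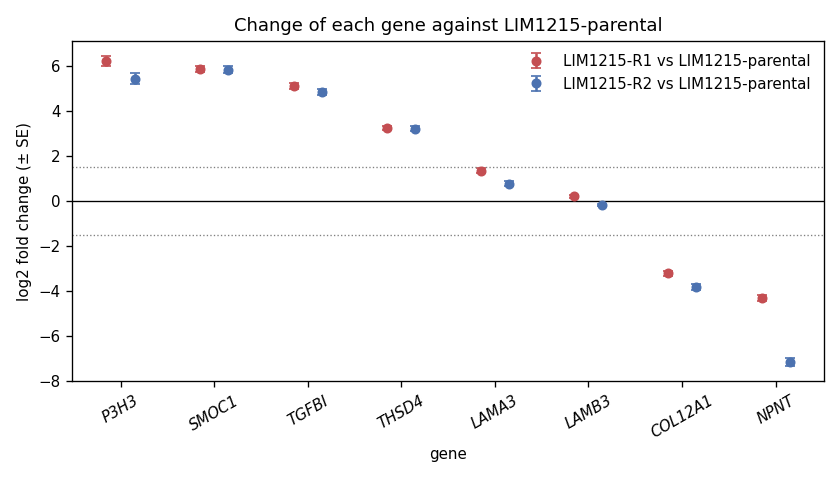
log2 fold change against LIM1215-parental cells with its SE for LIM1215-R1 (red) and LIM1215-R2 (blue); dotted lines mark 1.5 and -1.5, and FN1 is left out for its low counts. P3H3, SMOC1, TGFBI and THSD4 lie between 3.22 and 6.22, LAMA3 at 1.35 and 0.77, LAMB3 at 0.20 and -0.20, and COL12A1 and NPNT between -3.23 and -7.17. The error bars understate the uncertainty where a line holds few counts. This holds in LIM1215-parental for P3H3, SMOC1 and TGFBI, and in LIM1215-R2 for NPNT.

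Per kb of exon, LAMB3 stood above LAMA3 in every line. LAMB3 stood at 34.0 CPM per kb in LIM1215-parental cells, 39.0 in LIM1215-R1 and 29.6 in LIM1215-R2, and LAMA3 at 0.473, 1.21 and 0.81 in the same order. The ratio of LAMB3 to LAMA3 was 73.0 ± 11.8 (SD, n = 3) for LIM1215-parental cells, 32.1 ± 2.04 for LIM1215-R1 and 36.6 ± 1.04 for LIM1215-R2, with all resistant libraries below the LIM1215-parental libraries. LAMA3 lengths include exons of a long and a short transcript, which lowers its level per kb where mainly the short one is made.

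LAMA5, LAMB1, LAMB2 and LAMC1 form the alpha5 laminins that are common in gut epithelium, and their log2 fold changes lay between -0.34 and 0.12 in both resistant lines. LAMA5 fell in LIM1215-R2 (log2 fold change -0.29, SE 0.0568, edgeR adjusted p = 0.000208) and measured -0.18 in LIM1215-R1 (edgeR adjusted p = 0.0155). In LIM1215-R1 it passed without LIM1215-parental replicate 1 (-0.25, edgeR adjusted p = 0.000672) or LIM1215-R1 replicate 2 (-0.22, edgeR adjusted p = 0.00341), with scaling by total counts (0.00386) and with no filter on low counts (0.00346). LAMB1 fell in LIM1215-R1 (-0.34, SE 0.0522, edgeR adjusted p = 5.79e-06) and measured -0.17 in LIM1215-R2 (edgeR adjusted p = 0.0136). In LIM1215-R2 LAMB1 passed without LIM1215-R1 replicate 1 or 2, with scaling by total counts and with only the 6 libraries of the comparison (-0.18 to -0.16, edgeR adjusted p 0.0066 to 0.00783). LAMB2 (0.12 and -0.06) and LAMC1 (-0.01 and -0.19) did not pass in either line, with edgeR adjusted p from 0.0129 to 0.9. LAMC1 passed in LIM1215-R2 without LIM1215-parental replicate 2, LIM1215-R1 replicate 1 or LIM1215-R1 replicate 2, and with scaling by total counts (-0.20 to -0.19, edgeR adjusted p 0.0067 to 0.00926).

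**Figure D3:**
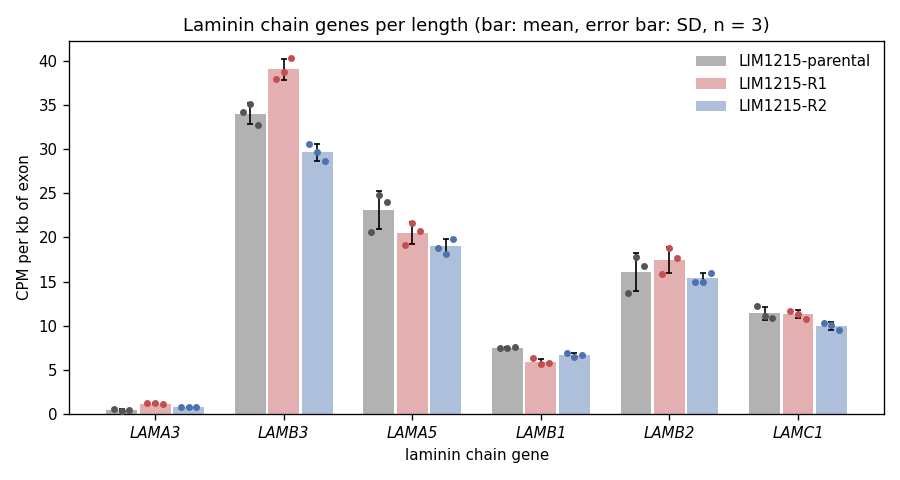
Level of 6 laminin chain genes in CPM per kb of exon (linear axis from 0; bars show the mean, error bars the SD, points the 3 libraries of each line). LAMB3 stood at 29.6 to 39.0, and LAMA3 stayed at or below 1.21 in all 3 lines.

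FN1 encodes fibronectin, a fibril-forming glycoprotein of stroma and plasma (chr2:215360440-215436073, minus strand). It was at the limit of detection, with 0, 0 and 0 counts in the LIM1215-parental libraries, 3, 2 and 3 in those of LIM1215-R1 and 0, 1 and 1 in those of LIM1215-R2. These 10 counts just met the filter. Over the group, LIM1215-R1, with its 8 counts taken as exact, was 2.76-fold above the 3 counts that a sum of 0 allows in LIM1215-parental. The test did not pass (edgeR adjusted p = 0.0217). LIM1215-R2 and LIM1215-parental were both under that floor (edgeR adjusted p = 0.272). The ratio of LIM1215-R1 to LIM1215-R2 was 4 with a 95% counting interval of 0.799 to 38.7 (edgeR adjusted p = 0.327).

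ITGA5, the alpha chain of the fibronectin receptor alpha5beta1, measured 0.354, 0.433 and 0.315 CPM in LIM1215-parental, 8.89, 11.3 and 10.9 CPM in LIM1215-R1 and 9.04, 8.73 and 8.42 CPM in LIM1215-R2 libraries. Its log2 fold change was 4.81 in LIM1215-R1 (SE 0.219, edgeR adjusted p = 4.51e-16) and 4.57 in LIM1215-R2 (SE 0.225, edgeR adjusted p = 2.56e-15). ITGB1, its partner chain, fell slightly (-0.21 and -0.26, edgeR adjusted p = 0.00578 and 0.000728). The fall of ITGB1 in LIM1215-R1 missed the threshold when single libraries were left out: LIM1215-parental replicate 1 or 3, LIM1215-R1 replicate 2 or 3, or LIM1215-R2 replicate 2 (log2 fold change -0.22 to -0.14, edgeR adjusted p 0.0113 to 0.0464). It also missed it with only the 6 libraries of the comparison (edgeR adjusted p = 0.017) and with the filter of 10 counts in 3 libraries (0.0118). In LIM1215-R2 it missed it without LIM1215-R2 replicate 3 (-0.22, edgeR adjusted p = 0.0101).

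Of the laminin-332 receptors, ITGA3 rose in LIM1215-R1 (0.50, SE 0.0508, edgeR adjusted p = 7.01e-09) and LIM1215-R2 (0.29, SE 0.051, edgeR adjusted p = 3.93e-05). ITGB4 rose by 0.43 (SE 0.0473, edgeR adjusted p = 2.62e-08) and 0.52 (SE 0.0473, edgeR adjusted p = 8.11e-10). ITGA6, which pairs with ITGB4, fell in LIM1215-R1 (-0.20, SE 0.0483, edgeR adjusted p = 0.00127; without LIM1215-parental replicate 3, -0.17 and 0.0146) and measured 0.01 in LIM1215-R2 (edgeR adjusted p = 0.883). ITGAV, a receptor chain for TGFBI, measured -0.02 and 0.02 and did not pass. ITGA9, which binds several matrix proteins, had 475 counts over the LIM1215-parental libraries, 3 over those of LIM1215-R1 and 20 over those of LIM1215-R2, and the 3 counts were all in replicate 1. Its ratio of LIM1215-parental to LIM1215-R1 was 153 (95% counting interval 52.1 to 746, edgeR adjusted p = 6.19e-15), and its log2 fold change in LIM1215-R2 was -4.50 (SE 0.262, edgeR adjusted p = 8.45e-14).

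P3H1, which hydroxylates fibrillar collagen with CRTAP and PPIB, rose in LIM1215-R1 (0.58, SE 0.11, edgeR adjusted p = 0.000111) and measured 0.34 in LIM1215-R2 (edgeR adjusted p = 0.0196). P3H2, which acts on basement membrane collagen, fell on the log2 scale by 1.51 in LIM1215-R1 (SE 0.195, edgeR adjusted p = 4.58e-07) and by 1.76 in LIM1215-R2 (SE 0.201, edgeR adjusted p = 5.75e-08). P3H4, the partner of P3H3, rose by 0.30 (SE 0.076, edgeR adjusted p = 0.00265) and 0.36 (SE 0.0757, edgeR adjusted p = 0.000381). The first of these did not pass without LIM1215-parental replicate 1 (0.28, edgeR adjusted p = 0.0134) or LIM1215-R1 replicate 3 (0.29, edgeR adjusted p = 0.0128). CRTAP (-0.09 and -0.12) and PPIB (0.12 and 0.07) did not pass, although PPIB did in LIM1215-R1 with DESeq2 (adjusted p = 0.0043) and with the filter of 10 counts in 3 libraries (edgeR adjusted p = 0.00622). Per library, P3H2 ranged from 5.43 to 6.28 CPM in LIM1215-parental and from 1.38 to 2.64 CPM in the resistant lines.

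Among the relatives of SMOC1 and THSD4, SMOC2 measured 0.649, 0 and 0.263 CPM in LIM1215-parental, 23.7, 25.9 and 24.7 CPM in LIM1215-R1 and 8.03, 8.79 and 9.14 CPM in LIM1215-R2 libraries. Its log2 fold change was 6.24 in LIM1215-R1 (SE 0.228, edgeR adjusted p = 3.61e-18) and 4.72 in LIM1215-R2 (SE 0.274, edgeR adjusted p = 8.05e-14). Without LIM1215-parental replicate 1 these were 7.28 and 5.76. It separated the resistant lines, with -1.52 for LIM1215-R2 against LIM1215-R1 (SE 0.127, edgeR adjusted p = 1.41e-09). FBN1, the fibrillin that THSD4 binds, measured 0.354 to 1.31 CPM over all libraries and did not pass (0.17 and 0.73, edgeR adjusted p = 0.79 and 0.145). ADAMTSL4 had 1 count over the LIM1215-parental libraries, 6 over LIM1215-R1 and 5 over LIM1215-R2, and did not pass. COL14A1, a relative of COL12A1, had 4 counts in LIM1215-parental and 0 in each resistant line and was not tested.

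Beyond these, 8 lists of matrix genes were counted with the members left out. They hold 192 genes, of which 115 were tested. A gene was called differentially expressed (DEG) if its adjusted p was 0.01 or less and its log2 fold change 1.5 or more in either direction. In LIM1215-R1, 11 listed genes were DEGs with higher and 6 with lower expression, 9.57% and 5.22% of those tested, beside 3.24% and 1.91% of all genes. In LIM1215-R2, 10 were higher and 11 lower, 8.7% and 9.57%, beside 2.63% and 2.19% of all genes. Between LIM1215-R2 and LIM1215-R1, 1 was higher and 4 lower, 0.87% and 3.48%, beside 0.215% and 0.550%. With no fold threshold, 36 rose and 22 fell in LIM1215-R1, 31.3% and 19.1% of those tested, beside 14.0% and 13.4% of all genes. In LIM1215-R2, 29 rose and 26 fell, 25.2% and 22.6%, beside 12.3% and 11.6% of all genes. The shares with no fold threshold depend on the level of expression and were not compared to genes of like expression. The median log2 fold change over the 115 genes was 0.10 and 0.06, beside -0.01 and 0 over all genes.

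Of 20 basement membrane genes tested, 3 were DEGs in the LIM1215-R1 comparison and 4 in that of LIM1215-R2. Those in LIM1215-R1 were 2 higher and 1 lower, 10% and 5%, beside 3.24% and 1.91% of all genes. Those in LIM1215-R2 were 1 higher and 3 lower, 5% and 15%, beside 2.63% and 2.19% of all genes. Apart from SMOC2, FREM1, which bridges epidermal basement membrane and dermis, fell in LIM1215-R1 (-3.45, SE 0.415) and LIM1215-R2 (-1.91, SE 0.334). NID2, a nidogen that links laminin to type IV collagen, had 57 counts in LIM1215-parental and 2 in LIM1215-R2 cells, a ratio of 27.6 (95% counting interval 7.3 to 233, edgeR adjusted p = 1.71e-05), and both counts were in LIM1215-R2 replicate 3. In LIM1215-R1 NID2 measured -1.45 (edgeR adjusted p = 0.0186), and passed without LIM1215-parental replicate 1 (-1.83, edgeR adjusted p = 0.00246). NTN4, a laminin-related netrin, fell in LIM1215-R2 (-2.28, SE 0.356) and in LIM1215-R1 (-1.10, SE 0.303, edgeR adjusted p = 0.00491). The fall in LIM1215-R1 missed the threshold without LIM1215-parental replicate 1 or 2 or LIM1215-R1 replicate 1 or 2 (-1.13 to -0.91, edgeR adjusted p 0.0129 to 0.0328) and with DESeq2 (adjusted p = 0.0286). The edgeR adjusted p of FREM1 and NTN4 in LIM1215-R2 were 4.56e-05 and 9.25e-06, and that of FREM1 in LIM1215-R1 was 1.42e-07.

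Of 31 interstitial collagen genes, 9 were tested. COL13A1, a transmembrane collagen, measured 0 to 0.118 CPM in LIM1215-parental, 8.57 to 9.91 CPM in LIM1215-R1 and 9.01 to 10.9 CPM in LIM1215-R2 libraries. Its log2 fold change was 6.70 (SE 0.308, edgeR adjusted p = 5.2e-16) and 6.86 (SE 0.301, edgeR adjusted p = 1.93e-16). COL27A1, a fibrillar collagen of cartilage, went in opposite directions: it rose in LIM1215-R1 (0.61, SE 0.137, edgeR adjusted p = 0.000774) and fell in LIM1215-R2 (-2.17, SE 0.189, edgeR adjusted p = 3.71e-10).

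In the list of collagen modification and crosslinking, 16 of 22 genes tested passed in LIM1215-R1 (13 higher and 3 lower, 59.1% and 13.6%, beside 14.0% and 13.4% of all genes) and 13 in LIM1215-R2 (10 higher and 3 lower, 45.5% and 13.6%, beside 12.3% and 11.6% of all genes). These calls have no fold threshold, and small changes of highly expressed genes pass. P4HB did so at 0.16 in LIM1215-R1, with 876 CPM in LIM1215-parental. The shares were not compared to genes of like expression. The crosslinking enzyme LOXL1 rose by 3.71 (SE 0.383) and 2.77 (SE 0.43), and the procollagen protease ADAMTS14 by 3.24 (SE 0.409) and 2.50 (SE 0.447), with edgeR adjusted p of at most 5.94e-05. Without LIM1215-parental replicate 3 the values of ADAMTS14 were 4.08 and 3.34. COLGALT2, a collagen galactosyltransferase, measured 0.236 to 0.578 CPM in LIM1215-parental, 1.38 to 1.63 CPM in LIM1215-R1 and 11.3 to 13.8 CPM in LIM1215-R2 libraries. It rose by 1.97 in LIM1215-R1 (SE 0.327, edgeR adjusted p = 2.1e-05) and 5.01 in LIM1215-R2 (SE 0.221, edgeR adjusted p = 2.2e-16).

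Of the adhesive and matricellular genes, 4 of 17 tested were DEGs for LIM1215-R1 and 5 for LIM1215-R2. For LIM1215-R1, 3 were higher and 1 lower, 17.6% and 5.88%, beside 3.24% and 1.91% of all genes. For LIM1215-R2, 3 were higher and 2 lower, 17.6% and 11.8%, beside 2.63% and 2.19% of all genes. ECM1, a secreted glycoprotein of skin and other epithelia, rose by 2.90 and 3.15 (edgeR adjusted p = 1.51e-14 and 1.54e-15), and VWA1, a basement membrane protein with a von Willebrand factor domain, by 2.05 and 1.55 (edgeR adjusted p = 5.46e-15 and 4.8e-12). SPARC, a collagen-binding relative of SMOC1, measured 0 to 0.158 CPM in LIM1215-parental, 0.627 to 0.688 CPM in LIM1215-R1 and 1.18 to 1.25 CPM in LIM1215-R2 libraries. It rose in LIM1215-R1 (2.94, SE 0.606, edgeR adjusted p = 0.000311) and LIM1215-R2 (3.79, SE 0.544, edgeR adjusted p = 2.64e-06), or by 4.06 and 4.91 without LIM1215-parental replicate 3. MATN2, a filament-forming matrix protein, had 149 counts in LIM1215-parental and 1 in each resistant line, a ratio of 144 (95% counting intervals 25.5 to 5733 in LIM1215-R1 and 25.5 to 5739 in LIM1215-R2). The lone count was in replicate 1 of each line. VTN, which encodes vitronectin, measured -0.15 in LIM1215-R1 (edgeR adjusted p = 0.707) and fell in LIM1215-R2 (-1.61, SE 0.301, edgeR adjusted p = 0.000108; -2.24 without LIM1215-R2 replicate 3).

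Among 11 microfibril genes tested, 1 rose and 3 fell in each resistant line, 9.09% and 27.3%, beside 14.0% and 13.4% of all genes for LIM1215-R1 and 12.3% and 11.6% for LIM1215-R2. FBN2, a fibrillin, fell by -1.92 in LIM1215-R1 (SE 0.185, edgeR adjusted p = 2.62e-09) and -0.95 in LIM1215-R2 (SE 0.164, edgeR adjusted p = 4e-05). LTBP1, which ties latent TGF-beta to the matrix, fell more in LIM1215-R2 (-3.78, SE 0.207, edgeR adjusted p = 2.42e-14) than in LIM1215-R1 (-0.94, SE 0.143, edgeR adjusted p = 6.3e-06). It measured 8.79 to 9.09 CPM in LIM1215-parental, 4.32 to 5.27 CPM in LIM1215-R1 and 0.476 to 0.867 CPM in LIM1215-R2 libraries. The proteoglycan list had 1 DEG of 10 tested in each line, with lower expression (10%, beside 1.91% of all genes for LIM1215-R1 and 2.19% for LIM1215-R2). It was GPC5, which had 24 counts in LIM1215-parental and 0 in either resistant line. Against the floor of 3 counts, GPC5 was 7.74-fold lower in LIM1215-R1 and 7.75-fold lower in LIM1215-R2, with the 24 counts taken as exact. Its mean was below 1 CPM and it is named after its values were seen. The receptor list had 20 genes tested, with ITGA5 and ITGA9 as its DEGs in both lines. Each line had 1 higher and 1 lower, 5% each. Of all genes, 3.24% were DEGs with higher and 1.91% with lower expression for LIM1215-R1, and 2.63% and 2.19% for LIM1215-R2.

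**Figure D4:**
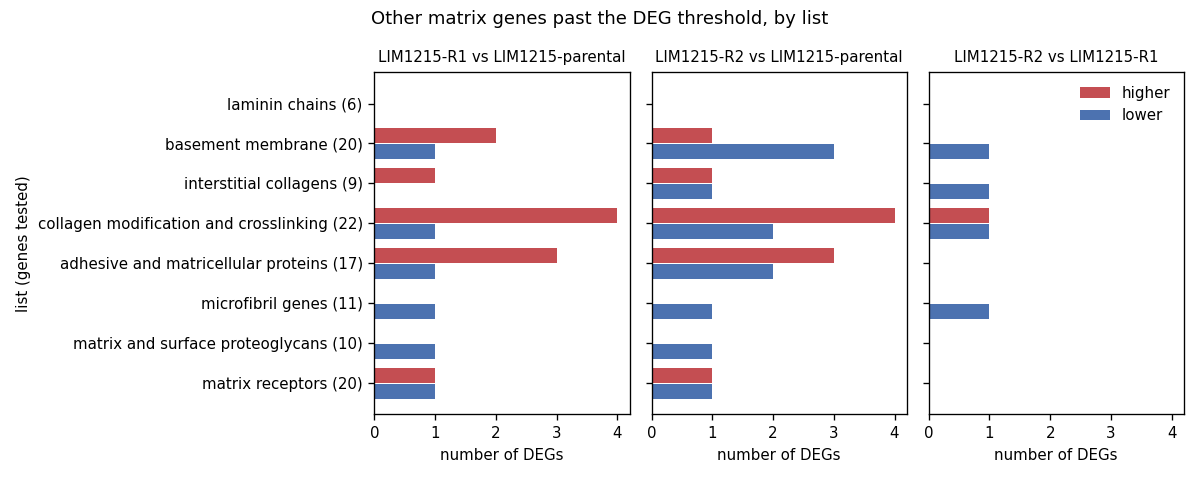
Number of DEGs with higher (red) and lower (blue) expression in each list of matrix genes, with the number tested in brackets, for the 3 comparisons. Collagen modification had 4 DEGs higher in each resistant line (18.2% of its 22 tested genes, beside 3.24% of all genes for LIM1215-R1 and 2.63% for LIM1215-R2). Laminin chains had 0, and 5 listed genes separated LIM1215-R2 from LIM1215-R1.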

How the data were processed

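Poly(A) RNA of 3 lines was sequenced in 9 libraries, 3 per line. The authors prepared stranded paired-end libraries, used STAR (hg38) and HTSeq 0.9.1 on the reverse strand, and deposited raw counts per gene symbol; the annotation was not given in the sources used here. Here genes reaching a total of 10 counts were kept, scaled by TMM and tested with edgeR 4.0.16 (R 4.3.3; glmQLFit and glmQLFTest, all 3 lines in one fit, Benjamini-Hochberg over 19102 genes). SE is the absolute log2 fold change over the root of F. For a large change with few counts in a line, this SE can fall below the counting error. CPM use TMM library sizes. Positions and exon lengths come from GENCODE 44, promoters from RefSeq. Counting intervals are exact at 95% and, like the floor of 3 counts, cover counting error only. Ratios to that floor take the counts of the higher line as exact. Alternatives included DESeq2 1.42.0. The fit was tested on simulated data.

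The members and lists were chosen with earlier results of these data known. Named were the members, their listed relatives and receptors, and up to 4 DEGs per list, direction and comparison with at least 1 CPM in the higher line. 1 relative is not reported here.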

Additional observations from a re-analysis of the deposited data

Results flagged for a closer look

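In these results the effects in LIM1215-R1 and LIM1215-R2 cells, both measured against the same LIM1215-parental libraries, differed from each other by the edgeR test of LIM1215-R2 against LIM1215-R1 (log2 fold change, edgeR adjusted p over all genes). Lower in LIM1215-R2 were PCOLCE2, an enhancer of procollagen processing (-3.42, 3.97e-05), LTBP1 (-2.84, 8.39e-10), COL27A1 (-2.78, 9.63e-12), SMOC2 (-1.52, 1.41e-09), VTN (-1.46, 0.00156), LAMA3 (-0.58, 0.00021), VWA1 (-0.50, 0.000263), LAMB3 (-0.39, 1.38e-06) and ITGA3 (-0.20, 0.00629). Higher in LIM1215-R2 were COLGALT2 (3.05, 5.85e-13), FBN2 (0.97, 0.00162) and ITGA6 (0.22, 0.00257).

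COL27A1 and LAMB3 passed in opposite directions against LIM1215-parental cells. The differences of ITGA3, ITGA6, FBN2 and VTN each missed the threshold in at least 1 of the fits that left out 1 library: ITGA3 and ITGA6 without LIM1215-R1 replicate 2 or 3 or LIM1215-R2 replicate 1 or 2 (edgeR adjusted p up to 0.0569 and 0.0414; ITGA3 also with scaling by total counts alone, 0.0113), FBN2 without LIM1215-R1 replicate 2 (0.0142) or LIM1215-R2 replicate 1 (0.016), and VTN without LIM1215-R1 replicate 3 (0.0142) or LIM1215-R2 replicate 1 (0.0184) or 2 (0.0228), while without LIM1215-R2 replicate 3 the value of VTN was -2.09.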

How the results depend on the processing

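The 6 picked genes kept their direction against LIM1215-parental cells and moved by less than the SD between replicates in every alternative. LAMA3 and LAMB3 kept their direction in all alternatives and lost a call only for LAMB3 when single libraries were left out, where its log2 fold change ranged from 0.17 to 0.22 in LIM1215-R1 and from -0.22 to -0.18 in LIM1215-R2. FN1 passed under no alternative that gave a value; with at least 10 counts in 3 libraries, or with DESeq2, it had none. The count of listed DEGs in LIM1215-R2 against LIM1215-R1 rose from 5 to 8 without a filter on low counts and to 8 with a replicate block, and was 4 to 7 when single libraries were left out. Replicate numbers did not pair the libraries (correlations of deviations -0.0186 to 0.0984, none of 9 pairs over 0.1). The replicate block left 17 listed DEGs for LIM1215-R1 and 21 for LIM1215-R2. Scaling by total counts moved the median log2 fold change of all genes to -0.045 in LIM1215-R1. Of the values of the other named genes over all alternatives, 29 gained and 30 lost a call and 1612 did neither. With the replicate block LAMA5 passed in LIM1215-R1 (edgeR adjusted p = 0.000745), and LAMB1 and LAMC1 passed in LIM1215-R2 (0.00386 and 0.00229). FN1 rests on 10 counts in all.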
